A study of Mus musculus with 7 samples.

Results

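The 35 genes described here encode the stress sensors, folding enzymes and disposal machinery of the endoplasmic reticulum (ER), the compartment in which secreted and membrane proteins are folded. The list was taken as given by gene symbol, and each gene was read from 1 probe set of the array, the brightest over all 7 arrays among those that name only that gene. All 35 were found among the 18193 genes with such a probe set, and 34 were bright enough to be among the 11460 genes tested. Only Chac1, a glutathione-degrading enzyme of the stress response, was too dim to test.

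The study measured total RNA on Affymetrix arrays in CD4+ T cells from the peripheral lymph nodes of 3-week-old males. B6 (C57BL/6) was represented by 1 array, made from the lymph nodes of 2 mice. Scurfy mice (Sf; B6.Cg-Foxp3sf/J), which carry a mutated Foxp3 in the germ line and lack functional regulatory T cells, had 3 arrays. Sf.Il2-/- mice, which are scurfy and in addition Il2-null (B6.129P2-Il2tm1Hor/J), had 3 arrays, so both mutant groups share the Foxp3 mutation. Cells bearing CD8, B220, NK1.1, CD11c or CD11b were removed, and CD3+ CD4+ cells were then sorted. The labels call the arrays of a group biological replicates. Since B6 had no second array, both comparisons with B6 take their spread from the mutant arrays and share the same control array. In bulk RNA of this kind, fewer cells of a type and less RNA per cell cannot be told apart.

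The unfolded protein response is the programme by which a cell adjusts its ER to the load of client proteins. The membrane sensors IRE1, PERK and ATF6 activate the transcription factors XBP1, ATF4 and ATF6, which in turn act on chaperones, degradation factors and amino acid metabolism. Lymphocytes are known to draw on this programme when they become secretory or divide rapidly. ATF6 binds the ER stress element of chaperone promoters, in which a CCAAT box and a CCACG box are separated by a fixed spacer. ATF4 and CHOP act through a composite C/EBP-ATF element in genes of amino acid supply and stress signalling.

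Promoter sequence was read as well, since part of the list shared promoter letters. The motifs searched are those known from genes of this response. Their shares among the members are therefore not independent of how the list was made, and are given as description. RefSeq promoters (GRCm38.p6), each 300 bases long with 250 before and 50 after the start, were matched by symbol for 30 of the 35 members. The ER stress element, searched on both strands as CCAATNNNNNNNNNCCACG, was present in 8 of the 30 (26.7%) and in 0.137% of the 27025 genes with a promoter in the table. These 8 stretches are shown because the same genes are followed as a set below. Capitals mark the CCAAT and CCACG boxes of the element, and where CGTGG comes before ATTGG the element is read on the other strand. Each is written 5′ to 3′ along the strand of its gene.

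Hspa5 (chr2:34772019-34772049, plus strand): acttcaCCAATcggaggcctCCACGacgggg
Hsp90b1 (chr10:86705527-86705662, minus strand): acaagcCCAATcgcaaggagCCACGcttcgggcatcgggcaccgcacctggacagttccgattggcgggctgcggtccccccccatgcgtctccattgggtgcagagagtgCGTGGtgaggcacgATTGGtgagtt
Dnajc3 (chr14:118937821-118937851, plus strand): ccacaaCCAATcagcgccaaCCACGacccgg
Creld2 (chr15:88819514-88819544, plus strand): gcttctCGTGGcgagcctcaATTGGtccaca
Pdia6 (chr12:17266485-17266515, plus strand): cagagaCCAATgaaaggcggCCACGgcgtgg
Calr (chr8:84847069-84847099, minus strand): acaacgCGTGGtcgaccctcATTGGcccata
Canx (chr11:50325794-50325824, minus strand): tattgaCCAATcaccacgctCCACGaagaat
Syvn1 (chr19:6046526-6046556, plus strand): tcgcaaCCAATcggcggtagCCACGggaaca

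Hsp90b1, the ER member of the HSP90 family, holds the element at 2 places, so its stretch is longer than the rest. The element started between -212 and -44 bases relative to the transcription start in these promoters. The shorter letters CCAAT were present in 23 of 30 members (76.7%) and in 41.1% of all genes, and CCACG in 24 (80.0%) and 35.5%. Both are contained in the full element. ACGTGG, the core of the XBP1 element, was present in 7 members (23.3%) and in 9.40% of genes, and the longer form TGACGTGG in 0 members and 0.714% of genes. A match describes letters only and does not show binding.

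The C/EBP-ATF element, searched on both strands as TGATGNAAN, was present in 4 of 30 members (13.3%) and in 4.50% of all genes. It is shown for those 4 because they include Asns, the member with the largest difference measured. Capitals mark the element.

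Asns (chr6:7693212-7693244, minus strand): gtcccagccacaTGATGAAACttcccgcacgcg
Herpud1 (chr8:94386304-94386336, plus strand): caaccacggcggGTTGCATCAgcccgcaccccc
Trib3 (chr2:152344027-152344059, minus strand): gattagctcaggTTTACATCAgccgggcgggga
Chac1 (chr2:119351036-119351068, plus strand): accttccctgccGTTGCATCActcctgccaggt

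Asns encodes asparagine synthetase, and in its promoter the element lies from -23 to -15 bases relative to the start. The whole Asns window, on the minus strand of chr6:7693160-7693459, reads as follows, with the same element in capitals.

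Asns promoter: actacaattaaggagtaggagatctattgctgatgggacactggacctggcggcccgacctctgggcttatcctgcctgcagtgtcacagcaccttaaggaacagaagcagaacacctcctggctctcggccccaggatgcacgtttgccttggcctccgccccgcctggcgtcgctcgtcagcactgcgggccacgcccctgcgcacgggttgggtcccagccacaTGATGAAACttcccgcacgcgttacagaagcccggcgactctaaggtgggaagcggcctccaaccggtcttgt

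Values are given below as log2(intensity + 1), called the log2 level, and differences are on the same log2 scale. Levels of different probe sets cannot be set against each other. A gene was counted as changed where limma's adjusted p was under 0.05 over all 11460 genes. The median intensity of the arrays was 29.3 to 32.4, and their upper quartile differed more, at 110 to 145.

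**Figure D1:**
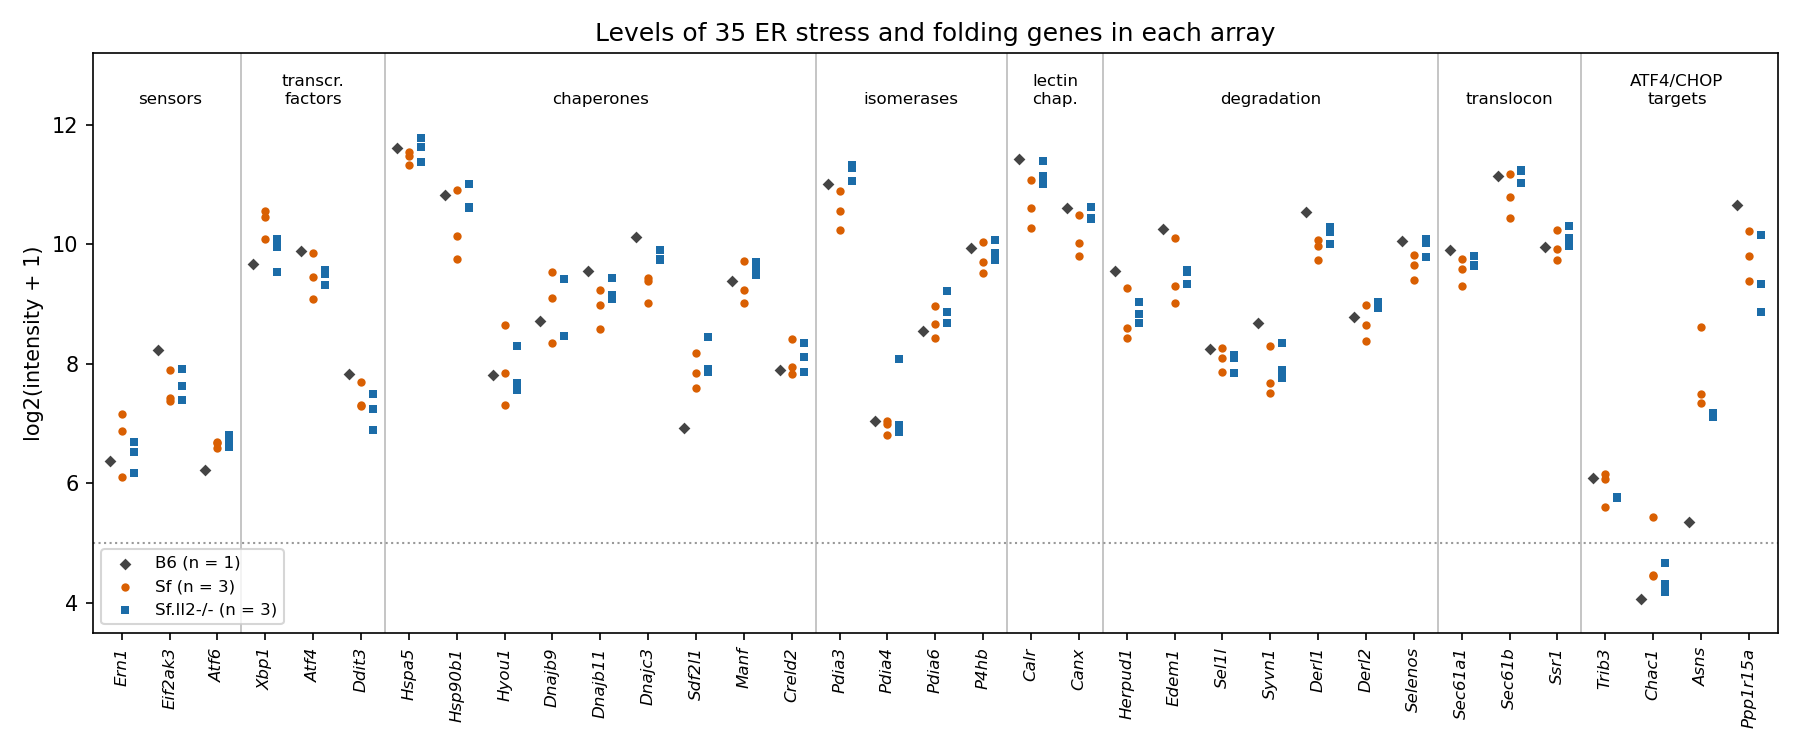
Log2 level of each of the 35 members (x axis, ordered by role) in every array. Diamonds are the B6 array, circles the 3 Sf arrays and squares the 3 Sf.Il2-/- arrays, and the dotted line is the level of 5 that the brightest group mean had to reach for testing. Most members overlap between Sf and Sf.Il2-/-, and the B6 diamond of Asns lies below every mutant array.

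The sorted cells carried the defining transcripts of CD4 T cells. Cd4 had a log2 level of 11.27 in the B6 array, 9.44 to 10.71 across Sf and 10.26 to 11.07 across Sf.Il2-/-, and Cd3e of the T cell receptor complex lay between 9.47 and 10.69 in all 7 arrays. Of the markers of depleted lineages present on the array, 5 of 8 for B cells, 2 of 3 for NK cells, 3 of 7 for dendritic cells, 0 of 6 for macrophages and 0 of 2 for CD8 T cells lay under 5 in every array. The brightest of these lineages' markers were Csf1r of macrophages (8.36 to 9.49 over the 7 arrays) and Cd22 of B cells (7.65 to 8.47). Cd68 of macrophages was at 5.03 in the B6 array, 4.73 to 5.32 across Sf and 6.20 to 6.74 across Sf.Il2-/-. Cd79b of B cells lay the other way, at 4.89, 5.10 to 5.30 and 3.99 to 4.32. The other markers of these lineages overlapped between the mutants. Cd8a and Cd8b1 were at 7.29 and 7.30 in the B6 array and lower in all 6 mutant arrays (5.50 to 6.54 and 6.37 to 6.99). Among the plasma cell markers, Sdc1 and Tnfrsf17 did not exceed 5.0 and 4.41 in any array and Mzb1 was at 6.40 to 6.61. Tnfrsf13b was at 8.94 in the B6 array and lower in all 6 mutant arrays, at 8.27 to 8.76. Prdm1 and Irf4, transcription factors that activated T cells express too, were above B6 in all 6 mutant arrays, Prdm1 at 6.17 in the B6 array and 6.59 to 7.78 in the mutants and Irf4 at 7.04 and 7.79 to 8.46. Jchain, which joins secreted IgM and IgA, reached 7.46 in Sf 1 and 6.23 in Sf.Il2-/- 1. Neutrophil S100a8 reached 6.37 in Sf 1 and 7.63 in Sf.Il2-/- 2 and was at most 4.10 in the other arrays. Sf 3 stood apart from Sf 1 and Sf 2 in many members, as given below.

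Scurfy cells were first set against B6. Among the 34 members tested, 1 was higher (Asns) and 0 were lower, against 1.31% of all genes higher and 1.16% lower. At an unadjusted p under 0.05, 7 members differed (20.6%), 3 of them higher and 4 lower, against 22.5% of all genes. The members' median difference was -0.26, beside -0.25 over all genes, and 17 of the 34 lay above that median of all genes. With all 3 Sf arrays above the B6 array there were 4 members (19.6% of all genes), namely Atf6, Xbp1, Sdf2l1 and Asns. With all 3 below there were 16 members (46.9% of all genes). These shares place the list near the background of the same comparison.

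Without Sf 3 the count in this comparison was 12 members, Asns higher and 11 lower. The 11 were Eif2ak3, Hsp90b1, Dnajb11, Dnajc3, Pdia3, Calr, Canx, Herpud1, Edem1, Syvn1 and Derl1. The 12 made 35.3% of the list, beside 3523 of 11737 genes called in the same fit. Quantile normalization gives every array the same distribution. It moved the median of all genes from -0.25 to 0.02 and that of the members from -0.26 to 0.19. With it Xbp1 and Sdf2l1 joined Asns as higher, 8.82% of members beside 4.83% of all genes. Of the 24 members with a difference below 0 at 2 decimals on the authors' scale, 14 were above 0 after it. Centring each array on its median turned 0 of them. Directions are therefore given below on the authors' scale, with the quantile value beside the differences that the text turns on.

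Sf.Il2-/- cells were set against the same B6 array. Here 0 members were higher and 0 lower by limma, against 1.49% and 1.20% of all genes. At an unadjusted p under 0.05 there were 3 (8.82%), against 18.6% of all genes. Asns and Sdf2l1 were the higher of them and Ppp1r15a was the lower. The members' median was -0.07 beside -0.14 over all genes. All 3 arrays lay above B6 for 8 members (24.7% of all genes) and below it for 14 (44.5%). Without Sf 3, whose spread enters the fit, 3 members passed (Sdf2l1 and Asns higher, Edem1 lower), beside 13.1% of all genes.

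The loss of Il2 within scurfy cells was compared directly between Sf.Il2-/- and Sf, each with 3 arrays. No member passed, with 0 higher and 0 lower by limma, against 0.0436% and 0.236% of all genes. At an unadjusted p under 0.05 there were 4 members (11.8%), of which Pdia3, Dnajc3 and Calr were higher in Sf.Il2-/- and Xbp1 was lower, against 7.92% of all genes. The median difference was 0.14 beside 0.08 over all genes. It was positive for 73.5% of members and 62.2% of all genes. The 3 arrays did not overlap between the groups for 2 members with higher levels in Sf.Il2-/- (Dnajc3 and Pdia3, 8.39% of all genes) and for 1 with lower levels (Asns, 3.72%). Of the 34 intervals, 27 lay within 1 log2 unit of 0, and their bounds ran from -1.36 to 1.11. Without Sf 3, Hsp90b1, Pdia3, Calr and Canx passed as higher, 11.8% of members beside 7.43% of all genes. After quantile normalization 10 of the 25 members with a positive difference were below 0, and the median was -0.05. With a replicate block, which pairs arrays of the same number, 0 members passed (0.533% of all genes).

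**Figure D2:**
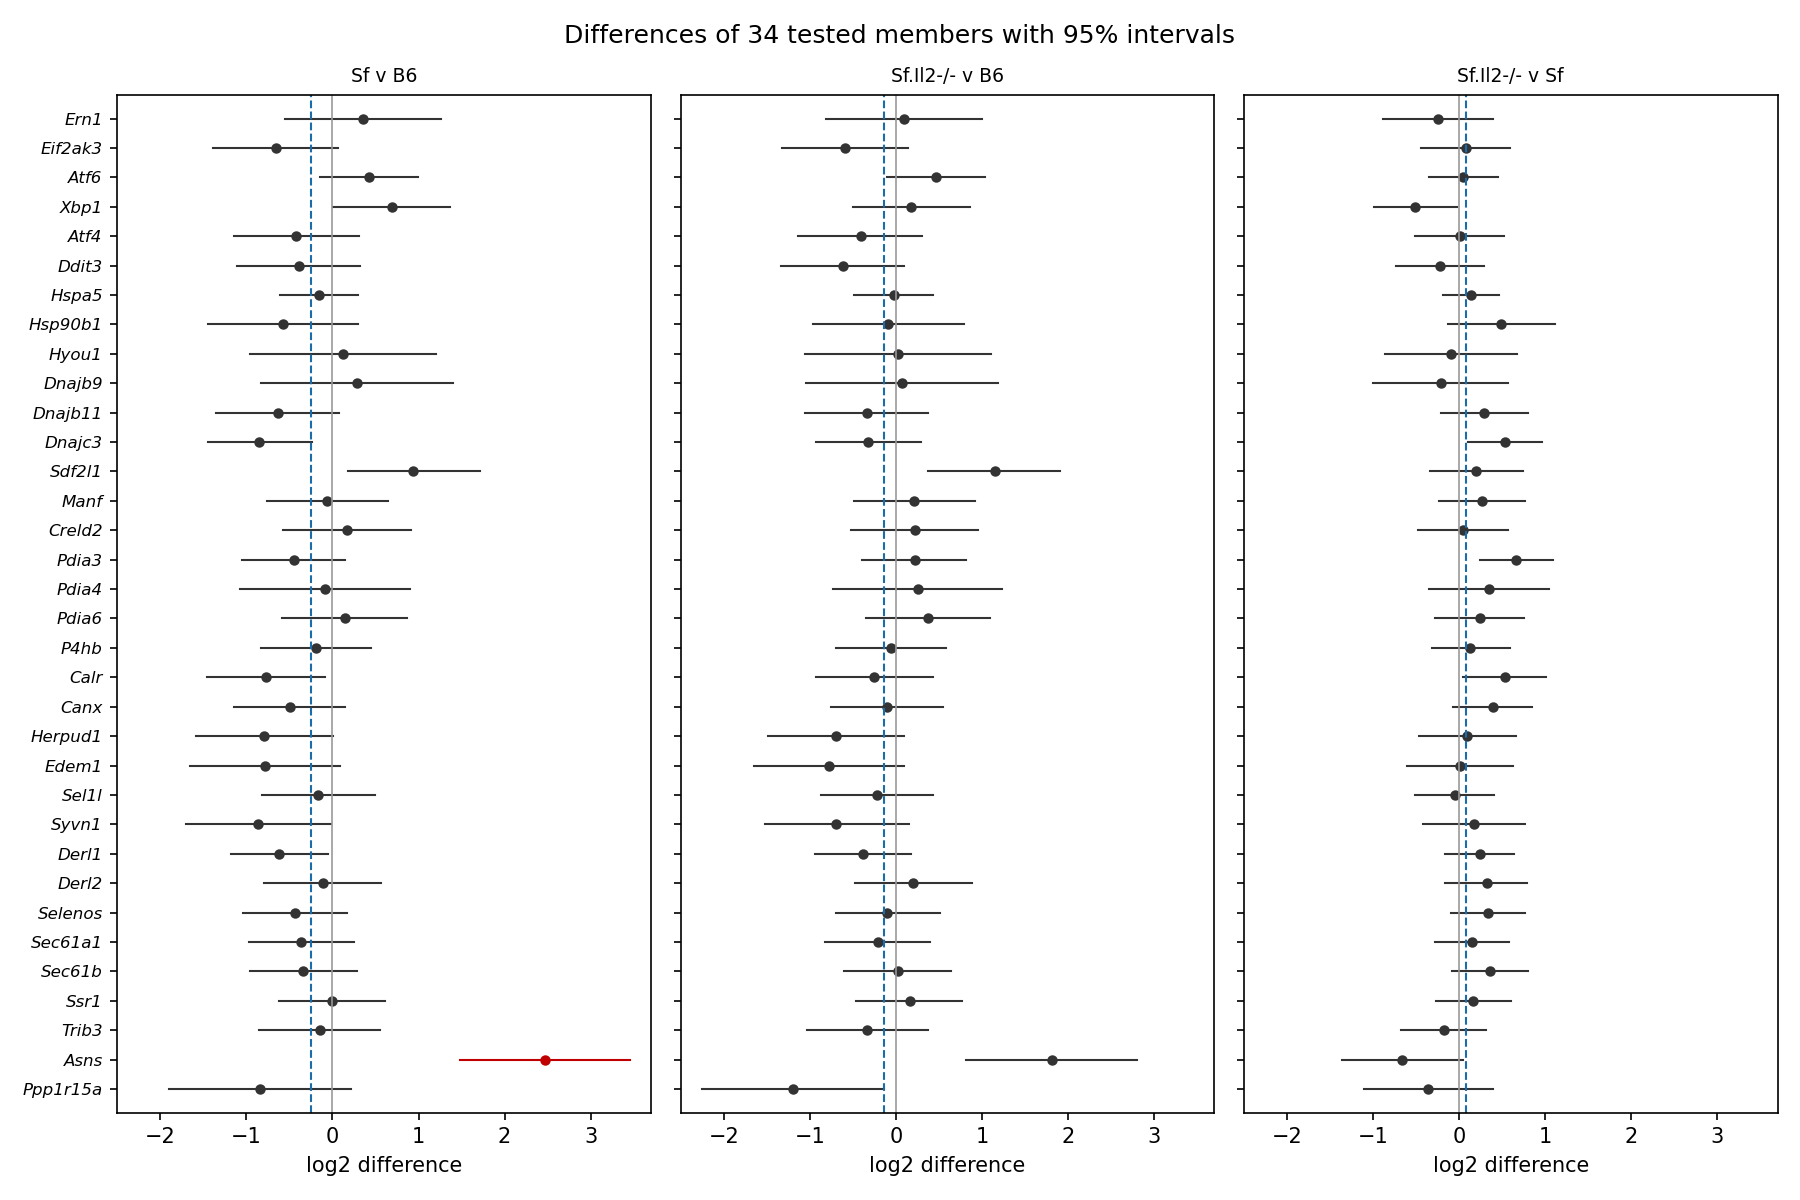
Log2 difference (x axis) of each of the 34 members tested, with its 95% interval from the limma fit, in the 3 comparisons. The dashed line is the median of all 11460 genes, and the coloured point, Asns in Sf against B6 (2.47), is the only one past the adjusted threshold.

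The sensors came first in the pathway, and 0 of 3 passed in any comparison. Eif2ak3 encodes PERK, the kinase that slows translation under ER stress. Its log2 level was 8.23 in B6, 7.43, 7.37 and 7.90 in the Sf arrays, and 7.39, 7.63 and 7.91 in the Sf.Il2-/- arrays. All 6 mutant arrays lay below B6, with differences of -0.66 ± 0.33 (SE, adjusted p = 0.257) in Sf and -0.59 ± 0.33 (adjusted p = 0.373) in Sf.Il2-/-. The quantile values were -0.35 and -0.31. Atf6 lay the other way, at 6.23 in B6 and 6.59 to 6.81 in all 6 mutant arrays, with differences of 0.42 (adjusted p = 0.341) and 0.47 (adjusted p = 0.363). Ern1, which encodes the kinase and ribonuclease IRE1, overlapped between all groups, at 6.37 in the B6 array, 6.11 to 7.16 across Sf and 6.17 to 6.69 across Sf.Il2-/-.

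Of the 3 transcription factors, 0 passed. Xbp1 encodes the factor made active when IRE1 cuts its mRNA, and the sources used here do not say whether a probe set tells the cut form apart. Its level was 9.67 in the B6 array, 10.56, 10.08 and 10.45 across Sf, and 9.95, 9.53 and 10.09 across Sf.Il2-/-. The 3 Sf arrays lay above B6, while the Sf.Il2-/- arrays lay on either side of it. The difference between Sf and B6 was 0.69 ± 0.30 (SE, adjusted p = 0.216), and that between Sf.Il2-/- and Sf was -0.51 ± 0.21 (adjusted p = 0.614). Of the other 3 probe sets of Xbp1, the 2 bright ones gave differences of 1.00 and 0.82 for Sf against B6 and of -0.66 and -0.56 for Sf.Il2-/- against Sf. The third was dim, with a highest group mean of 4.15, and gave 0.86 and 0.01. After quantile normalization the Sf difference was 1.30 (adjusted p = 0.0222).

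Atf4, the factor translated when PERK is active, was at 9.88 in the B6 array, 9.08 to 9.85 across Sf and 9.32 to 9.57 across Sf.Il2-/-. Ddit3 encodes CHOP, a factor linked to death of stressed cells. It was at 7.83 in the B6 array, 7.31, 7.30 and 7.69 across Sf, and 6.89, 7.50 and 7.25 across Sf.Il2-/-. Both lay below B6 in all 6 mutant arrays, and neither difference passed (Ddit3 -0.39 and -0.61, Atf4 -0.42 and -0.41), and in Sf the quantile values were -0.11 for Ddit3 and 0.14 for Atf4. A second Ddit3 probe set gave -0.67 and -1.09 in the same directions. A second Atf4 probe set gave -0.11 and -0.53. It overlapped B6 in Sf, at 8.98 in the B6 array and 8.99, 9.24 and 8.37 across Sf.

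Among the 9 chaperones and cochaperones, 0 passed, and the median differences were -0.06 in Sf and 0.03 in Sf.Il2-/- against B6. Hspa5 encodes BiP, the ER HSP70 and the usual marker of the response. Its level was 11.61 in the B6 array, 11.54, 11.48 and 11.33 across Sf, and 11.77, 11.38 and 11.62 across Sf.Il2-/-. The arrays of all groups lay within a narrow band, and the intervals of the differences ran from -0.61 to 0.30 in Sf and from -0.48 to 0.43 in Sf.Il2-/- against B6. These intervals assume that B6 varies as the mutant arrays do, and after quantile normalization the Sf difference was 0.29 in place of -0.16.

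Sdf2l1, an ER protein that works with BiP and its J-domain partners, had the largest difference among the chaperones. Its level was 6.93 in the B6 array, 7.84, 7.59 and 8.18 across Sf, and 7.92, 7.86 and 8.44 across Sf.Il2-/-. All 6 mutant arrays exceeded B6, with differences of 0.94 ± 0.34 (SE, adjusted p = 0.153) and 1.15 ± 0.34 (adjusted p = 0.126), neither of which passed. It passed in both comparisons under quantile normalization (1.18 and 1.33, adjusted p = 0.017 and 0.0107). It also passed with the array set as a block (1.28 and 1.48, adjusted p = 0.018 and 0.00895). The array sets group the arrays by correlation over dim probe sets, with no clear gap, and the labels name no batch. In Sf.Il2-/- Sdf2l1 also passed without Sf 3 (adjusted p = 0.0267).

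Dnajc3 encodes p58IPK, a cochaperone of BiP. It was at 10.12 in the B6 array, 9.39, 9.01 and 9.43 across Sf, and 9.74, 9.90 and 9.76 across Sf.Il2-/-. The Sf.Il2-/- arrays lay between B6 and every Sf array, with differences of -0.85 ± 0.27 (SE, adjusted p = 0.122) in Sf against B6 and 0.53 ± 0.19 (adjusted p = 0.508) in Sf.Il2-/- against Sf. The quantile values were -0.29 and 0.30, and a second probe set differed by 0.01 and 0.13. The remaining Dnajc3 probe sets gave -0.54, -0.20 and -0.54 in Sf against B6, and 0.40, 0.23 and 0.52 between the mutants. Hsp90b1 was at 10.83 in the B6 array, 10.13, 9.75 and 10.90 across Sf, and 10.62, 10.60 and 11.01 across Sf.Il2-/-, so that Sf 3 was above B6 and the other 2 Sf arrays below it, and its Sf difference of -0.57 was 0.11 after quantile normalization. Dnajb11, another BiP cochaperone, differed by -0.63 in Sf (adjusted p = 0.267). Hyou1, Dnajb9, Manf and Creld2 overlapped with B6 in Sf, with differences between -0.06 and 0.29.

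Among the 4 disulphide isomerases 0 passed. Pdia3 encodes ERp57, which forms disulphide bonds in glycoproteins held by the lectin chaperones and is part of the MHC class I loading complex. Its level was 11.01 in the B6 array, 10.56, 10.23 and 10.89 across Sf, and 11.28, 11.06 and 11.33 across Sf.Il2-/-. Every Sf array lay below B6 and every Sf.Il2-/- array above it, a pattern found in 1 of 34 members (2.94%) and in 143 of 11460 genes (1.25%). The difference between the mutants was 0.66 ± 0.19 (SE, adjusted p = 0.375, unadjusted 0.0061), a 1.58-fold difference with an interval of 0.24 to 1.09. Among the alternatives run it passed only when Sf 3 was left out (0.83, adjusted p = 0.0228). After quantile normalization Pdia3 was above B6 in both groups, by 0.24 and 0.48, and the difference between the mutants was 0.24. P4hb, Pdia4 and Pdia6 differed by at most 0.35 between the mutants, and for Pdia4 1 array, Sf.Il2-/- 3 at 8.08, stood above the other 2 of its group at 6.85 and 6.97.

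The lectin chaperones Calr and Canx hold newly made glycoproteins while they fold. Calr, calreticulin, was at 11.42 in the B6 array, 10.61, 10.27 and 11.07 across Sf, and 11.14, 11.00 and 11.40 across Sf.Il2-/-. All mutant arrays lay below B6, and Sf 3 overlapped the Sf.Il2-/- arrays. Its difference was -0.77 ± 0.30 (SE, adjusted p = 0.177) in Sf against B6 and 0.53 ± 0.21 (adjusted p = 0.59) in Sf.Il2-/- against Sf. Without Sf 3 the same values were -0.99 (adjusted p = 0.0126) and 0.74 (adjusted p = 0.0328), and after quantile normalization they were -0.13 and 0.10. The other 2 Calr probe sets gave -0.80 and -0.71 for Sf against B6 and 0.47 and 0.49 for Sf.Il2-/- against Sf. Canx, calnexin, was at 10.60 in B6, 10.02, 9.80 and 10.49 across Sf, and 10.43 to 10.62 in Sf.Il2-/-, and its Sf difference of -0.49 was 0.16 after quantile normalization.

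**Figure D3:**
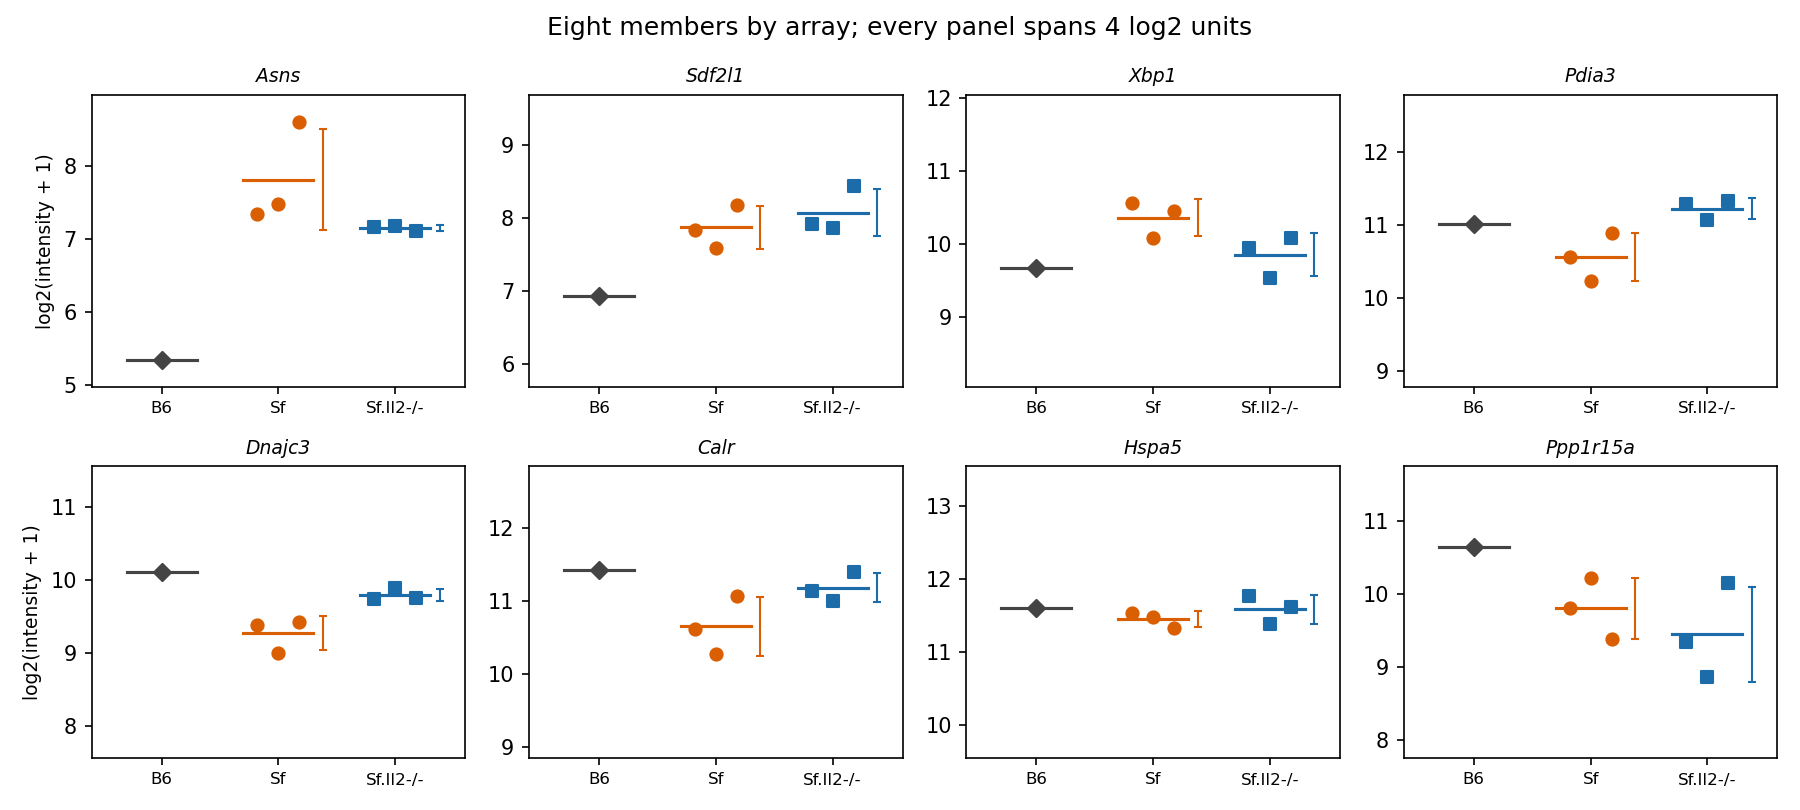
Log2 level (y axis, each panel spanning 4 units) of 8 members in every array. Horizontal lines are group means and bars are the SD over the 3 mutant arrays, with no bar for the single B6 array. Asns and Sdf2l1 lie above B6 in all 6 mutant arrays, Calr below it in all 6, and Pdia3 below it in Sf and above it in Sf.Il2-/-.

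Among the 7 genes that retrieve and destroy misfolded proteins, 0 passed. Their median difference was -0.62 in Sf and -0.38 in Sf.Il2-/- against B6, which is 0.37 and 0.24 below the median of all genes. These medians are on the authors' scale. After quantile normalization the 7 differences ran from -0.52 to 0.29 in Sf, around the median of all genes of 0.02. In Sf.Il2-/- they then ran from -0.42 to 0.48, beside 0.06 over all genes. Derl1, a channel component, was at 10.54 in the B6 array, 9.97, 9.74 and 10.07 across Sf, and 10.28 and 10.21 in Sf.Il2-/- 2 and 3, with Sf.Il2-/- 1 lower than both (group mean 10.17 ± 0.15, SD, n = 3), all below B6, with a difference of -0.62 ± 0.25 (SE, adjusted p = 0.19) in Sf and of 0.01 after quantile normalization. Herpud1, Edem1 and Syvn1 also lay below B6 in all 6 mutant arrays. Herpud1 stabilises the degradation complex, Edem1 recognises trimmed glycans and Syvn1 is the ubiquitin ligase HRD1. Their differences in Sf were -0.79 (adjusted p = 0.226), -0.78 (adjusted p = 0.263) and -0.86 (adjusted p = 0.212), and -0.34, -0.21 and -0.52 after quantile normalization. In Sf.Il2-/- they were -0.69, -0.78 and -0.69, and their second probe sets had the same signs in both comparisons with B6. Sf 3 was the Sf array closest to B6 in each of these 3 genes, as in Edem1 with 10.25 in the B6 array, 9.30, 9.01 and 10.11 across Sf, and 9.33, 9.57 and 9.53 across Sf.Il2-/-. Sel1l, the partner of HRD1, Derl2 and Selenos differed by -0.43 to -0.11 in Sf, and by 0.18, 0.29 and 0.15 after quantile normalization. A second Derl2 probe set gave -0.73 in Sf and -0.81 in Sf.Il2-/- against B6, where the one used gave -0.11 and 0.20.

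Sec61a1 and Sec61b, subunits of the channel through which new proteins enter the ER, and the associated Ssr1 gave differences between -0.36 and 0.00 in Sf and between -0.21 and 0.16 in Sf.Il2-/- against B6. All their intervals lay within 1 log2 unit of 0 for the probe sets used. Of the 6 Sec61a1 probe sets, 1 gave -0.93 in Sf and -1.16 in Sf.Il2-/- against B6. The others ran from -0.36 to 0.14 and from -0.21 to 0.28. Sec61b, the member of this role with the lowest p, was at 11.14 in the B6 array, 10.79, 10.44 and 11.18 across Sf, and 11.22, 11.02 and 11.24 across Sf.Il2-/-, with a difference between the mutants of 0.36 (adjusted p = 0.749) and of -0.07 after quantile normalization.

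Of the 3 targets of ATF4 and CHOP tested, 1 passed. Asns rose in Sf, where its level was 7.35, 7.49 and 8.61, from 5.35 in B6, and it was 7.17, 7.18 and 7.11 in Sf.Il2-/-. Every mutant array exceeded B6 by more than 1 log2 unit, and every Sf array exceeded every Sf.Il2-/- array. The difference was 2.47 ± 0.44 (SE, adjusted p = 0.024, 5.53-fold) in Sf against B6 and 1.81 ± 0.44 (adjusted p = 0.0693, 3.5-fold) in Sf.Il2-/- against B6. In Sf the call was lost without the filter on dim genes (adjusted p = 0.0503), held without Sf 3 at a difference of 2.07, and was 2.52 after quantile normalization. Between the mutants it was -0.66 ± 0.31 (adjusted p = 0.654), with an interval of -1.36 to 0.04, and without Sf 3 it was -0.26. A second Asns probe set, at 3.73 in the B6 array, 6.44, 6.37 and 7.88 across Sf, and 5.97, 6.12 and 6.46 across Sf.Il2-/-, gave differences of 3.17, 2.46 and -0.71. That probe set was bright enough to test only through the mutant groups, so its differences from B6 are not independent of the filter.

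Ppp1r15a encodes GADD34, which restores translation by directing the removal of phosphate from eIF2 alpha. It lay opposite to Asns, at 10.65 in the B6 array, 9.81, 10.22 and 9.39 across Sf, and 9.34, 8.86 and 10.15 across Sf.Il2-/-. All 6 mutant arrays were below B6, with differences of -0.84 (adjusted p = 0.307) and -1.20 (adjusted p = 0.217), and of -0.21 and -0.81 after quantile normalization. Trib3, a pseudokinase induced by CHOP, was at 6.09 in the B6 array, 5.60 to 6.16 across Sf and 5.75 to 5.77 across Sf.Il2-/-. Chac1 was at 4.06 in the B6 array, 4.44, 4.46 and 5.43 across Sf, and 4.67, 4.18 and 4.32 across Sf.Il2-/-. Of the other genes with the same promoter letters as Asns, Herpud1 lay below B6 in all 6 mutant arrays, Trib3 overlapped it in Sf, and Chac1 lay above it in all 6 at levels mostly under 5.

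The 8 members whose promoters hold the ER stress element were followed in each array. Their median difference from B6 was -0.64, -0.94 and -0.19 in the Sf arrays and -0.18, -0.22 and 0.02 in the Sf.Il2-/- arrays. The 21 tested members with a promoter but no such element had medians of -0.36, -0.42 and -0.03, and of -0.24, -0.12 and -0.04. Over all genes the same medians were -0.29, -0.41 and -0.10 across the Sf arrays and -0.17, -0.19 and -0.08 across the Sf.Il2-/- arrays. Sf 1 and Sf 2 were thus lower in the genes with the element than in the rest, by a wider margin than Sf 3 or the Sf.Il2-/- arrays. By group means, the 8 had a median of -0.53 in Sf against B6 and of 0.32 in Sf.Il2-/- against Sf, with all 8 positive in the latter (0.04 to 0.53). Under quantile normalization these medians were 0.14 and 0.10, with 6 of 8 positive, so the direction against B6 turned, and with the mean of all probe sets of each gene they were -0.25 and 0.26. No test was made over the set, which was chosen with earlier results of these data known.

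**Figure D4:**
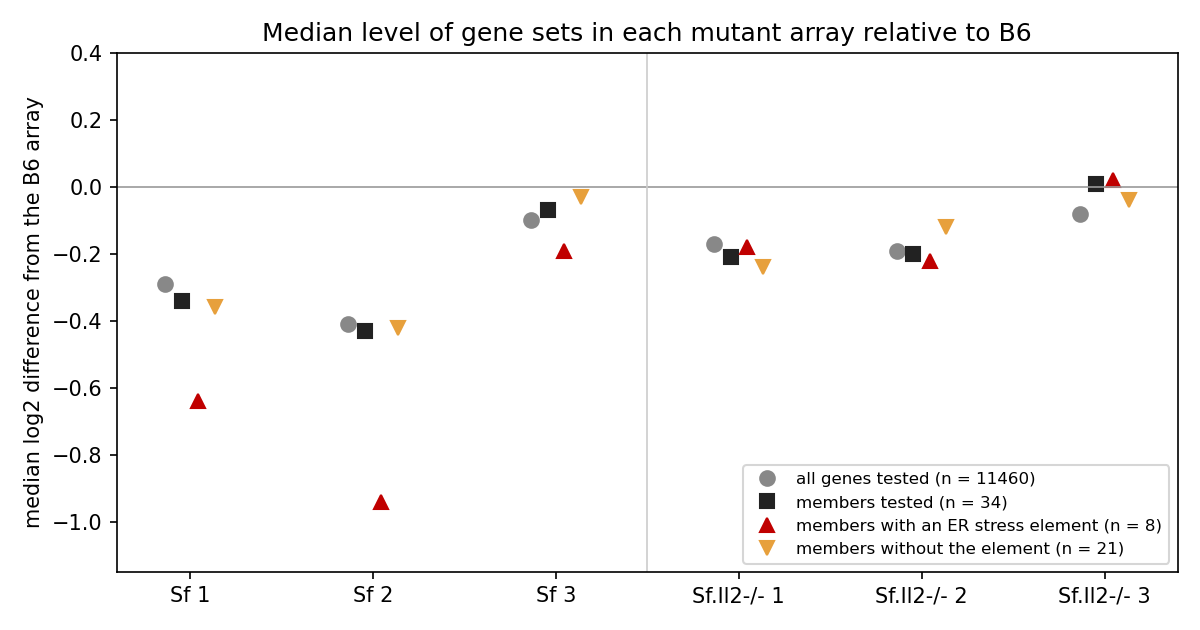
Median log2 difference from the B6 array (y axis) in each of the 6 mutant arrays (x axis) for all 11460 genes tested (circles), the 34 members (squares), the 8 members with an ER stress element (upward triangles) and the 21 without it (downward triangles). The 8 lie lowest in Sf 1 (-0.64) and Sf 2 (-0.94) and near 0 in Sf.Il2-/- 3 (0.02).

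Other measures also differed between the arrays. The upper quartile of intensity was 141 in B6, 145 in Sf 3 and 130 in Sf.Il2-/- 3, and 110 to 116 in the other 4 arrays. The summed intensity of the 8 CD4 T cell markers present was 18900 in the B6 array, 11500, 9970 and 13700 across Sf, and 16600, 15600 and 17200 across Sf.Il2-/-. That of the 9 plasma cell and plasmablast markers present was 3830 in B6, 1690 to 2850 in Sf and 2880 to 3200 in Sf.Il2-/-, and was carried by Ighm (11.53 in B6, 9.69 to 10.70 in Sf, 10.81 to 11.00 in Sf.Il2-/-), while Sdc1 and Tnfrsf17 stayed dim as given above. The median difference of the 7 of these markers tested was 1.03 in Sf and 0.52 in Sf.Il2-/- against B6, opposite in sign to the change of the sum. Jchain and Derl3, at 4.61 and 4.53 in B6, were bright enough to test only through the mutant groups. The 2 marker medians are therefore not independent of the filter on dim genes. Prdm1 differed by 1.17 and 0.96 (adjusted p = 0.155 and 0.268) and Irf4 by 1.03 and 1.20 (adjusted p = 0.123 and 0.102). The part of these in the values of the folding genes was not tested. The arrays also fell into 2 sets by correlation over 14762 dim probe sets, with no clear gap between them (lowest within a set 0.553, highest between sets 0.554). The labels name no batch. B6, Sf 3 and Sf.Il2-/- 3 formed a set, and Sf 1, Sf 2, Sf.Il2-/- 1 and Sf.Il2-/- 2 formed the other. Between the mutants the members' median was 0.19 within the set of 4 arrays and 0.06 within the set of 3, and in the set of 3 it was -0.07 for Sf against B6 and 0.01 for Sf.Il2-/- against B6. The difference of Asns from B6 in that set was 3.26 in Sf and 1.77 in Sf.Il2-/-. Without Sf 1 and Sf.Il2-/- 2, the arrays with the highest neutrophil transcripts, 1 member passed in each comparison with B6 (Asns) and 0 between the mutants. The share of all genes that passed was 2.47% in Sf and 2.52% in Sf.Il2-/- against B6, and 0.421% between the mutants.

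A further 107 genes of the same pathway, in 7 lists by role, gave a similar picture, with 103 present and 98 tested. In Sf against B6, 0 of 98 passed, in Sf.Il2-/- against B6 1 was higher and 0 lower, and between the mutants 0 passed. The 1 was Derl3, a relative of Derl1 known from secretory cells, which rose in Sf.Il2-/- from 4.53 in B6 to 6.32, 5.67 and 6.24 (1.55, adjusted p = 0.0478), and was at 5.79, 5.77 and 5.93 in Sf (1.30, adjusted p = 0.0755). Its B6 level lay under 5, so that it was bright enough to test only through the mutant groups, and its call is not independent of that filter. It passed in 9 of 16 alternatives, was lost without the filter (adjusted p = 0.0935), and the adjusted p was 0.0878 without Sf 1, 0.0587 without Sf 2, 0.143 without Sf.Il2-/- 1 and 0.0945 without Sf.Il2-/- 3. Derl3 is also among the plasma cell markers. The lists' median over all 98 was -0.26 in Sf and -0.15 in Sf.Il2-/- against B6, beside -0.25 and -0.14 over all genes. The 19 other genes of the ATF4 and CHOP response tested had medians of 0.13 and 0.29. These are 0.38 and 0.43 above those of all genes. All 3 Sf arrays lay above B6 in 8 of the 19 (19.6% of all genes) and below it in 3 (46.9%). The 19 include Atf3, which was bright enough to test only through Sf, so their medians and the 8 are not independent of the filter. The 14 other degradation genes, Derl3 among them, had medians of -0.64 and -0.29, which is 0.39 and 0.15 below.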

How the data were processed

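Arrays were deposited as a table of 45037 probe sets with 1 intensity value per array, on a linear scale, per the file headers and the values. The submitters' processing notes name GCOS and GCRMA, and their role, version and settings are not given in the sources used here. The arrays' medians and quartiles differ, so no quantile normalization is visible. The number of arrays limits the precision.

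From the deposited intensity, log2(intensity + 1) was computed. Symbols came from the array annotation, in which 34945 probe sets name 1 gene, 932 several and 9160 none, and 34741 were updated through Entrez numbers. Each of 18193 genes was read from its brightest probe set over 7 arrays, and was tested where the highest group mean reached 5. A single model of 3 group means over all arrays was fitted in limma (version 3.58.1, R 4.3.3) by lmFit, and its variances were moderated by eBayes along an intensity trend. This left 4 residual degrees of freedom, 9.57 after moderation. P-values were adjusted by Benjamini-Hochberg, with a threshold of 0.05. The script was tested on simulated data. B6 is assumed to vary like the mutants. Summaries were made in Python 3.11.15 and figures in matplotlib 3.10.9.

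The members, the pathway and marker lists and the tests were chosen with earlier results of these data known. All 35 members are accounted for. Values in every array are given for members past the threshold, for the member with the lowest p of each role (Derl1 in part by its group mean) and for further members described, and other pathway genes are named where they passed. Of the 107 pathway genes 103 were read, and the others, with 12 of the 74 marker genes, are not analysed here. Promoters are RefSeq's (GRCm38.p6), and Atf6, Hyou1, Manf, Derl1 and Sec61a1 have none printed. Protein sequences were planned and are not used here.

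Replicate numbers come from the titles. Over genes, deviations from the group mean correlated at 0.301, 0.211 and 0.505 between same-numbered Sf and Sf.Il2-/- arrays and at -0.477 to 0.333 between differently numbered ones. Sf 2 correlated best with Sf.Il2-/- 1, so the numbers do not mark pairs cleanly, and a replicate block was run as an alternative. Other alternatives were the filter, normalization, pseudocount, variance model, choice of probe set, array set as a block, and leaving out arrays.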

Additional observations from a re-analysis of the deposited data

Results flagged for a closer look

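Pdia3 was the only member in which both mutant groups lay wholly on opposite sides of B6, with all 3 Sf arrays below and all 3 Sf.Il2-/- arrays above it. The difference of Sf.Il2-/- from Sf was 0.66 on the log2 scale and was tested in the limma fit, where it missed the threshold (adjusted p = 0.375). The same pattern was present in 143 of 11460 genes.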

How the results depend on the processing

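The count of members past the threshold in Sf against B6 was 1, and it was 0 without the filter on dim genes (where Asns had an adjusted p of 0.0503), 3 under quantile normalization, 2 with the array set as a block and 1 to 12 when single arrays were left out, with 12 without Sf 3. In Sf.Il2-/- against B6 the count was 0 (2.69% of all genes). It was 2 under quantile normalization (6.3%) and 2 with the array set as a block (6.29%). It was 1 with the second probe set (2.7%), 1 with the 2 groups alone (7.37%) and 1 without Sf 1 and Sf.Il2-/- 2 (2.52%). When single arrays were left out it was 0 to 3, with 3 without Sf 3 (13.1%). Between the mutants it was 0 (0.279% of all genes), and 0 to 4 when single arrays were left out, with 4 without Sf 3 (7.43%). With a replicate block it was 0 (60 of 11247 genes), and the block changed no member's call. Median differences of the members from B6 moved under quantile normalization from -0.26 to 0.19 in Sf and from -0.07 to 0.22 in Sf.Il2-/-, and the median between the mutants went from 0.14 to -0.05. The cause of these changes was not tested. The 12 and the 3 rest on a B6 group of 1 array, as do all comparisons with B6, and leaving that array out leaves no such comparison.

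Asns in Sf against B6 passed in 16 of 17 alternatives, with a difference of 2.07 to 3.17 and an adjusted p of 0.000382 to 0.0503. In Sf.Il2-/- against B6 it passed in 6, with 1.5 to 2.46 and an adjusted p of 0.00166 to 0.163. The largest differences, 3.17 and 2.46, came from the second probe set, whose pass is among the 6. That probe set was bright enough to test only through the mutant groups. Derl3 in Sf.Il2-/- against B6 was lost without the filter (adjusted p = 0.0935), with the filter at 6 (0.0641) and with a pseudocount of 16 (0.0669). Over all members and comparisons 1859 values were recomputed. Of these, 1656 were counted as the same, 28 came to pass the threshold, 1 was lost, 0 called values reversed and 174 moved otherwise. The same meant an unchanged direction and side of the threshold. For differences within an array set, which have no test, it meant a shift under the gene's pooled SD.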

Other observations

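Among the other genes of the ATF4 and CHOP response, Psat1, which makes serine, was at a log2 level of 8.90 in the B6 array, 9.81, 9.48 and 9.97 across Sf, and 10.47, 9.62 and 9.89 across Sf.Il2-/-. All 6 mutant arrays lay above B6, with differences of 0.85 (limma adjusted p = 0.198) and 1.09 (adjusted p = 0.154) that did not pass. They were 1.36 and 1.30 (adjusted p = 0.028 and 0.0297) after quantile normalization, and without Sf 3 the adjusted p in Sf.Il2-/- was 0.0477. Atf3, a stress-induced transcription factor, was at 3.86 in the B6 array, 5.59, 6.30 and 4.69 across Sf, and 3.28, 3.07 and 3.84 across Sf.Il2-/-. Every Sf array lay above every Sf.Il2-/- array, at levels under 5 in all but 2 arrays. Atf3 was bright enough to test only through Sf, so no test of it is given. Both genes were chosen after their values were seen.

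Of the 21 members with a second probe set bright enough to read, the sign agreed between both probe sets in 16 for Sf against B6, in 14 for Sf.Il2-/- against B6 and in 16 between the mutants.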
